A study of Homo sapiens with 4 samples.

Results

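The regions described here are the sites on chromosomes 1 to 22 at which ATAC-seq called a narrow peak in every one of 4 libraries, outside 11 listed windows of 1 Mb. Overlapping narrow peaks (by at least 1 bp) were joined across libraries into 17258 regions, and 653 of these held a peak from all 4 libraries (3.78%). The regions were thus chosen by measured values, the q of the authors' narrow peaks, and their peak heights are described without a test. Of the 653, 242 lay in the listed windows and 411 remained. All coordinates are on hg19 and regions are named by position, since neither genome sequence nor gene models of that build were used here, and no gene is assigned to a site.

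The cells were OVSAHO, an established ovarian cancer line, and open chromatin was profiled with a transposase, which inserts sequencing adapters where DNA is accessible. Test cells combined stable upregulation of SMARCA2 with a knockdown of SMARCA4, and control cells were wild type, each with 2 libraries. Every library came from cells exposed for 2 days to 25 µM carboplatin, a DNA-crosslinking platinum compound, so an effect of the drug could not be separated from the state of the cells. The labels do not say whether the replicates were separate cultures, so the spread between them may be technical.

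Active promoters are depleted of nucleosomes, and in ATAC-seq they usually give a focal excess of short fragments inside a wider open region that also holds nucleosome-length fragments. SMARCA2 and SMARCA4 are alternative ATPase subunits of the SWI/SNF remodelling complexes, which slide and evict nucleosomes. A different source of peaks is mitochondrial DNA, which carries no nucleosomes and is cut freely by the transposase, so that its fragments can align to copies of mitochondrial sequence that were inserted into nuclear chromosomes during evolution. Repeat arrays of which the assembly holds too few copies, near centromeres and chromosome ends, can also gather reads from many loci.

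The authors' narrow peaks rest on short, nucleosome-free fragments and their broad peaks on fragments of every length. The short fragments numbered 6146272 and 6885374 in test 1 and 2 and 15828837 and 7531794 in control 1 and 2, which was 27.4%, 29.2%, 50.2% and 29.6% of each library's fragments. Control 1 therefore stood apart in depth and in fragment size before any site was compared. It was also the library most often lacking at sites called in the other 3: outside the listed windows, 141 regions missed only test 1 and 32 only test 2, while 658 missed only control 1 and 43 only control 2. Its narrow list was nonetheless the longest. On chromosomes 1 to 22 the lists held 3311 and 4075 peaks in test 1 and 2 and 10217 and 5315 in control 1 and 2. Peaks in the 411 regions made up 12.8% and 10.5% of these in test 1 and 2 and 4.10% and 8.18% in control 1 and 2. Without control 1 the rule would have returned 1073 regions, against 411 with it.

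The label of the set, sites outside pericentromeres, held only in part. Of the 411 regions, 165 lay within 5 Mb of a centromere gap, on chromosome 9 as many as 30 of its 35 regions. A further 19 lay within 100 kb of the first base or of the last deposited peak of a chromosome. The regions were therefore divided by place, a division made after their values had been seen. In order, 23 fell in 0.1 Mb bins listed from background knowledge as holding nuclear copies of mitochondrial DNA, 163 of the rest were near a centromere, 19 were at a chromosome end, and 206 lay on chromosome arms. Of the 206 arm regions, 139 overlapped a broad peak in 3 or 4 libraries and 67 in fewer. Taking every region under such broad peaks outside the mitochondrial-copy bins as a likely promoter, with no regard to place, would have given 262 regions, of which 123 were near a centromere or a chromosome end.

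**Figure D1:**
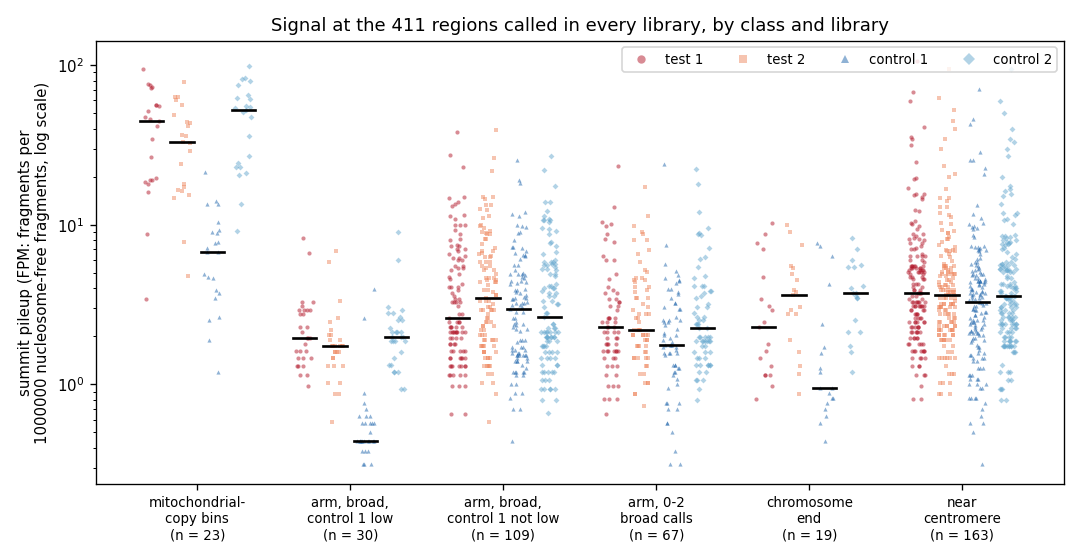
Summit pileup of the narrow peak per 1000000 nucleosome-free fragments (log scale) for each of the 411 regions, by class and library. Points are regions and black bars are medians, and the mitochondrial-copy bins have medians of 44.7, 33.1, 6.70 and 52.6 in test 1, test 2, control 1 and control 2.

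The strongest and most uniform group was the 23 regions in bins of nuclear mitochondrial copies, on 8 chromosomes. Summit pileup is the number of fragments over the highest point of a peak and is given per 1000000 nucleosome-free fragments of its library (FPM). Its median in these bins was 44.7 and 33.1 FPM in test 1 and 2 and 6.70 and 52.6 FPM in control 1 and 2. Group means of these medians were 38.9 ± 8.22 in test and 29.6 ± 32.4 in control (SD, n = 2 each), so the spread within the control group exceeded the difference between groups. Every one of the 23 regions was lowest in control 1, and in every one control 2 was above both test libraries. The control 1 pileup was 0.17 times the mean of the other 3 libraries at the median, with a range of 0.12 to 0.24. The ratio thus varied little between regions, although they lie on different chromosomes.

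Of the 23, 10 formed a block of 5501 bp on chromosome 1, from chr1:564478 to chr1:569978. Within it the pileup ran from 34.7 to 94.2 FPM in test 1 and 29.0 to 78.3 FPM in test 2, and from 4.61 to 21.3 FPM in control 1 and 47.4 to 98.5 FPM in control 2. The same 4 regions were the highest in each library. The highest region, chr1:569884-569978, had 94.2 FPM (95% exact Poisson interval 86.7 to 102) and 78.3 (71.8 to 85.2) in test 1 and 2 and 21.3 (19.1 to 23.7) and 98.5 (91.6 to 106) in control 1 and 2. These intervals cover counting error only, and duplicates were kept by the authors' peak calling. The local background in the block was high as well, up to 11.9 FPM in test 1, and the authors' fold enrichment was only 3.34 to 8.87 over the test libraries and 2.78 to 11.7 over the control libraries. In control 2 one broad peak of 5462 bp overlapped all 10 regions.

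**Figure D2:**
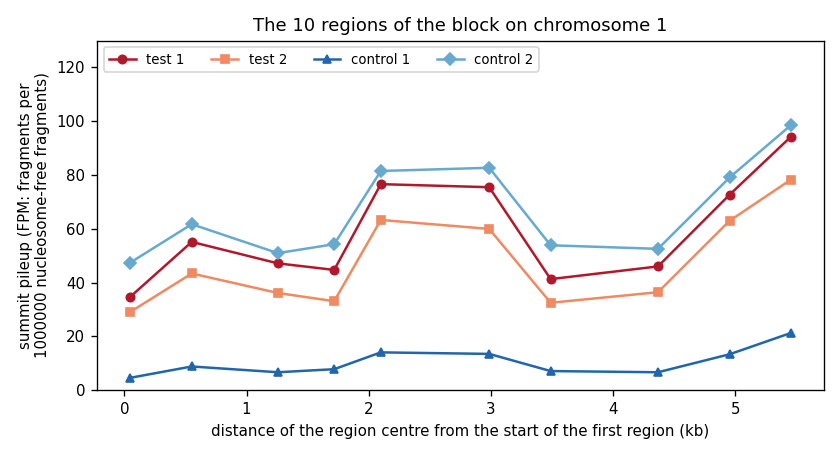
Summit pileup per 1000000 nucleosome-free fragments at the 10 regions of the chromosome 1 block, against distance from the start of the first region, with 1 line per library. Control 2 is highest at each region and control 1 lowest, between 4.61 and 21.3.

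Outside chromosome 1, the other 13 regions were at most 234 bp wide, with a fold enrichment of 8.58 to 92.2 over the libraries. The highest fold enrichment in test 1, test 2 and control 2 was at chr2:149639298-149639412, with 86.5 and 81.8 in test 1 and 2 and 59.7 and 92.2 in control 1 and 2. Its pileup was 56.3 FPM (exact interval 50.5 to 62.6) and 44.2 (39.3 to 49.4) in test 1 and 2 and 9.29 (7.85 to 10.9) and 61.6 (56.1 to 67.5) in control 1 and 2. No library had a broad peak there, so the site was an isolated pile of short fragments with no wider open region called around it. At chr13:110076475-110076676 the pileup in FPM was 72.2 and 56.1 in test 1 and 2 and 10.4 and 75.3 in control 1 and 2. A broad peak was called there in each library but it was about as wide as the narrow peak, at 200, 196, 188 and 197 bp in test 1, test 2, control 1 and control 2.

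Some of these loci held a pair or a run of peaks that shared a broad peak. On chromosome 5, chr5:79946925-79947076 and chr5:79947258-79947481 lay 182 bp apart, and the stronger had 55.8 and 48.9 FPM in test 1 and 2 and 9.03 and 65.1 in control 1 and 2. A second locus on the same chromosome, between chr5:134259827 and chr5:134263496, held 4 regions with 14.7 to 26.7 FPM in the test libraries. On chromosome 11, chr11:10531033-10531266 had 51.3 and 41.3 FPM in test 1 and 2 and 7.64 and 55.1 in control 1 and 2, with a weaker neighbour 76 bp away. The weakest locus was chr6:62284043-62284145, with 3.42 and 4.79 FPM in test 1 and 2 and 1.20 and 9.16 in control 1 and 2. This one lies within 5 Mb of a centromere gap, as does chr3:96336753-96336839.

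Where the summits fell is another measure than how high they were, though how far it follows from the fragment counts was not tested. In the 23 regions of these bins, the 4 summits lay within a median of 11 bp of each other, and within 20 bp in 20 of the 23. Such close summits were not particular to these bins. The median was also 11 bp in the 242 regions of the listed windows. It was 15 bp near centromeres and 19 bp in the arm regions with fewer broad peaks. Across the 23 regions the pileups ranked nearly alike in every pair of libraries, with Spearman's rho between 0.969 and 0.991, given as a description because neighbouring regions share fragments and bins. Broad peaks, which hold the same short fragments among all others and which the choice of regions did not use, gave the same order of libraries. For the 15 regions with a broad peak in all 4 libraries, the median broad pileup per 1000000 fragments was 36.5 and 33.6 in test 1 and 2 and 6.80 and 49.3 in control 1 and 2, and control 1 was lowest in 15 of 15, several of which share a broad peak.

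**Figure D3:**
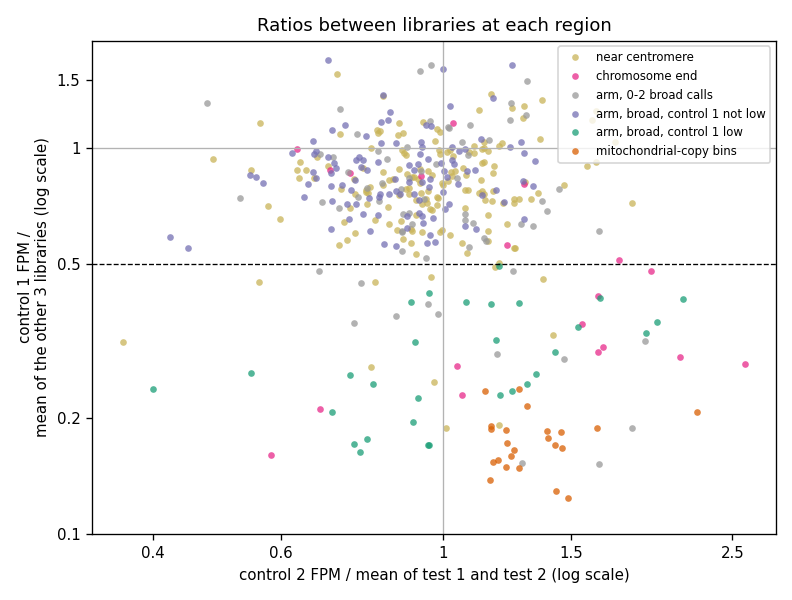
Each point is 1 of the 411 regions, with the control 2 pileup over the mean of both test libraries on the x axis and the control 1 pileup over the mean of the other 3 libraries on the y axis (both log scales). The 23 regions of the mitochondrial-copy bins lie together at the lower right, between 1.14 and 2.23 on the x axis and 0.12 and 0.24 on the y axis.

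A few regions outside the listed bins had both ratios in the range of these 23, and they were picked out only after those ratios were known. There were 6 such regions, of which 3 were 70 to 117 bp wide. They were chr12:41757447-41757516, with 19.2 and 14.1 FPM in test 1 and 2 and 3.41 and 19.9 in control 1 and 2, and chr7:45291577-45291693, with 12.9 and 9.0 FPM in test 1 and 2 and 2.02 and 17.9 FPM in control 1 and 2. The third was chr8:100508099-100508170, with 10.1 and 8.71 FPM in test 1 and 2 and 1.58 and 12.1 in control 1 and 2. No broad peak was called at the chromosome 8 or chromosome 12 site, but both are narrower than the shortest broad peak over any region of the set. The other 3 were chr1:33430461-33430642, chr7:124569925-124570171 and chr19:18632999-18633383, at 182, 247 and 385 bp wide. Their summits held only 5, 6 and 9 fragments in control 1. Those at chr7:124569925-124570171 and chr19:18632999-18633383 lay under broad peaks of 3 and 4 libraries, so the ratios did not pick narrow, strong sites alone. Whether any of the 6 carries mitochondrial sequence was not tested.

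Low control 1 signal was not particular to these bins. Over all 411 regions, 88 had a control 1 pileup in FPM below 0.5 times the mean of the other 3 libraries. Among the 653 regions called in all libraries, which include the 411, 91 did (13.9%), so nearly all of these were outside the listed windows. That 88 includes the 23 mitochondrial-copy regions, 30 of the arm regions under broad peaks, 13 of the arm regions with fewer broad peaks, 11 at chromosome ends and 11 near centromeres. The ratio also depends on the scale. Per 1000000 of all fragments, the median ratio over the 411 regions was 1.34, against 0.77 per 1000000 nucleosome-free fragments, while the 23 mitochondrial-copy regions had a median of 0.30 and control 1 was still lowest in all 23. On that scale 53 of the 411 regions were below 0.5 times the other libraries, against 54 of the 653 regions called in all libraries (8.27%).

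The arm regions under broad peaks are where promoters would be looked for, and they were divided into those low in control 1 and the rest. The 30 low ones are described first. Since the control 1 narrow pileup defined them, it is given only as a description: the median summit pileup in FPM was 1.95 and 1.74 in test 1 and 2 and 0.44 and 1.99 in control 1 and 2. Beyond the broad peaks in 3 or 4 libraries required of all 139, their form was not used directly by the division. It is measured partly on control 1, whose low pileups defined the 30. Their narrow peaks had a median width of 198.5 and 184 bp in test 1 and 2 and 76.5 and 226.5 bp in control 1 and 2. The merged regions had a median width of 278.5 bp, and the broad peaks over them a median of 590.5 and 530.5 bp in test 1 and 2, and of 370 bp (19 of the 30 regions) and 621.5 bp in control 1 and 2. Of the 30, 28 had no other region of the set within 100 kb, and none had its 4 summits within 20 bp of each other. The median range of summits was 95 bp, against 32 bp in the other 109 arm regions under broad peaks and 11 bp in the mitochondrial-copy bins. Between test 1 and test 2, which leaves control 1 out, the median summit distance was 22.5 bp in the 30. That distance was 13 bp in the 109 and 6 bp in the mitochondrial-copy bins. From test 1 and 2 to control 1 it was 42 and 58 bp in the 30. How far these distances follow from small counts was not tested. A short-fragment summit inside a wider broad peak is the form usually given by active promoters, but it was not particular to the 30. A broad peak was required of both parts, so its presence is no finding. The fragment size given was 62 to 68 bp for narrow calls and 131 to 182 bp for broad calls. How far this sets the widths was not tested. The other 109 had a median width of 235 bp, under broad peaks with medians of 554 and 595 bp in test 1 and 2 and 679 and 620 bp in control 1 and 2, and the broad peak was 2.68 times as wide as the narrow one in the 30 and 3.33 times in the 109.

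**Figure D4:**
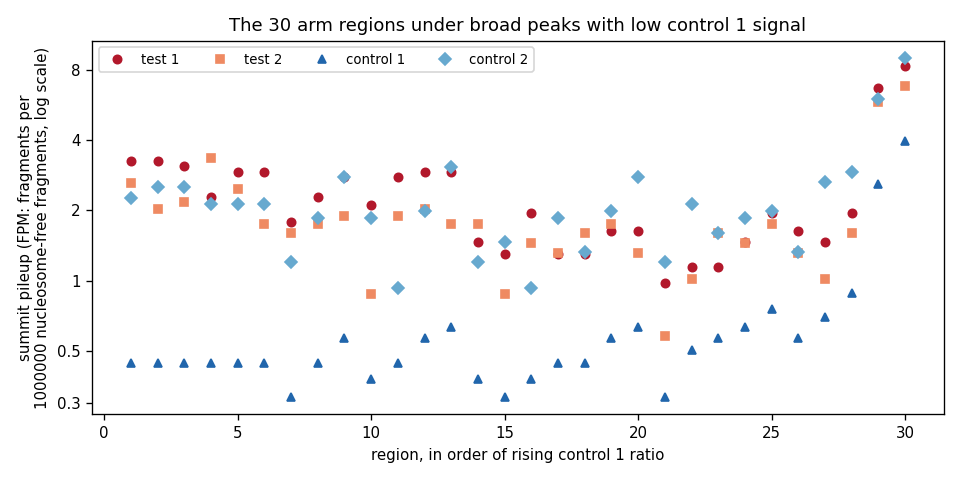
Summit pileup per 1000000 nucleosome-free fragments (log scale) at the 30 arm regions under broad peaks with low control 1 signal, in order of rising ratio of control 1 to the mean of the other libraries. In 28 regions control 1 lies below 1 FPM, and the 2 at the right are the higher and narrower sites on chromosomes 17 and 5.

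Counts at these sites were small. At chr7:143533732-143534087, the region lowest in control 1 relative to the others, the summit held 20 and 18 fragments in test 1 and 2 and 7 and 17 in control 1 and 2. Per 1000000 nucleosome-free fragments this was 3.25 (exact Poisson interval 1.99 to 5.03) and 2.61 (1.55 to 4.13) in test 1 and 2 and 0.44 (0.18 to 0.91) and 2.26 (1.31 to 3.61) in control 1 and 2. This region was picked as the lowest of regions already low in control 1, so the intervals show the size of the counting error and no test of a difference. A broad peak lay over it in every library, 819, 933, 824 and 932 bp wide in test 1, test 2, control 1 and control 2.

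The isolated sites next in rising order of the control 1 ratio were picked by that ratio too. Their low control 1 counts therefore follow from the choice. At chr19:8943297-8943636 the summit held 20 and 14 fragments in test 1 and 2 and 7 and 19 in control 1 and 2, under broad peaks of 719, 671, 188 and 717 bp. At chr3:129830545-129831008 it held 19, 15, 7 and 19 fragments in these libraries, and at chr7:94287137-94287819 it held 14, 23, 7 and 16. There the control 1 broad peaks were 271 and 370 bp wide, against 824 bp at chr7:143533732-143534087. In control 1, 25 of the 30 regions rested on 10 fragments or fewer, and 11 of the 30 had no broad peak. The control 1 calls were near the threshold: the median −log10 q of the 30 was 9.55 and 8.22 in test 1 and 2 and 2.76 and 12.6 in control 1 and 2, where a q of 0.05 was the authors' limit. Of the 30, 23 had a control 1 −log10 q below 5, while only 3 and 6 did so in test 1 and 2 and 2 in control 2.

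Broad peaks hold the same short fragments, so their order follows in part from the division and is given as a description. For 19 of the 30 regions the median broad pileup per 1000000 fragments was 1.80 and 1.74 in test 1 and 2 and 0.455 and 2.445 in control 1 and 2, with control 1 lowest in 18 of 19. Narrow pileups per 1000000 of all fragments were lowest in control 1 in 28 of the 30, and 16 were then below 0.5 times the mean of the other libraries. A pair of the 30 did not share the wide form. At chr5:71146740-71146942 and chr17:33478109-33478353 fold enrichment was 19.98 to 34.9 over the libraries, and the broad peak was about as wide as the narrow one, at 200 to 202 bp and 223 to 245 bp.

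The other 109 arm regions under broad peaks are those left once regions low in control 1 were set apart, so their level in control 1 is partly fixed by the division. Their median summit pileup in FPM was 2.60 and 3.49 in test 1 and 2 and 2.97 and 2.66 in control 1 and 2, or 3.04 ± 0.62 in test and 2.81 ± 0.22 in control (SD, n = 2 each). Both control values lay between those of the test libraries. Per 1000000 of all fragments, however, the median ratio of control 1 to the other libraries was 1.47 here, against 0.84 in FPM, so their place in control 1 depends on the scale. In FPM, both test libraries were above both control libraries in 46 of the 109 (42.2%, against 28.6% of the 653 regions called in all libraries). Both control libraries were above both test libraries in 3 (2.75%, against 6.89%). Per 1000000 of all fragments these counts were 3 (2.75%, against 3.52% of the 653) and 18 (16.5%, against 30.0%). The larger count thus changed sides with the scale. These regions were of several forms. Of the 109, 39 had another region of the set within 10 kb, and there the broad peak was 10.7 times as wide as the narrow one at the median. By contrast, 60 had none within 100 kb, and there the broad peak was 1.75 times as wide.

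Some of the clusters on the arms were dense blocks. Between chr4:68264753 and chr4:68266726, 6 regions stood side by side under one broad peak of 2327 to 2348 bp. The highest, chr4:68265445-68265673, had 14.6 and 14.8 FPM in test 1 and 2 and 9.60 and 13.8 in control 1 and 2. Near the start of chromosome 18, 6 regions lay between chr18:107890 and chr18:111414, and the first of them, chr18:107890-108620, reached 37.9 and 39.1 FPM in test 1 and 2 and 25.3 and 27.1 in control 1 and 2. In these blocks control 1 was 0.67 to 0.84 times the mean of the other libraries on chromosome 4 and 0.73 to 0.91 times on chromosome 18, against 0.12 to 0.24 in the chromosome 1 block of mitochondrial copies.

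Among the isolated regions, 24 had a broad peak less than 1.5 times as wide as the narrow peak. Together with 1 region that had a neighbour within 100 kb, these 25 had a median fold enrichment of 17.4 and 22.4 in test 1 and 2 and 27.3 and 19.6 in control 1 and 2. At chr9:72653084-72653380 fold enrichment was 39.0 and 37.8 in test 1 and 2 and 47.8 and 37.3 in control 1 and 2, with broad peaks of 298 to 304 bp. At chr10:98561327-98561545 it was 37.2 and 38.2 in test 1 and 2 and 46.4 and 40.6 in control 1 and 2, with broad peaks of 217 to 223 bp. Whether such steep sites are promoters or repeats was not tested.

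The 67 arm regions with broad peaks in 2 libraries or fewer were narrow and mostly single. Their median width was 122 bp, 56 had no other region within 100 kb, and 30 had no broad peak in any library. Of the broad peaks they had, 2 and 8 were in test 1 and 2, and 35 and 2 in control 1 and 2. The 35 had a median width of 166 bp. Over all 411 regions, the shortest broad peak was 181 and 179 bp in test 1 and 2 and 131 and 182 bp in control 1 and 2. The fragment size given for the broad calls was 178 and 179 bp in test 1 and 2 and 131 and 182 bp in control 1 and 2. How far this difference in length gave rise to the counts was not tested. The strongest of the 67 regions was chr3:196625627-196625771, with a fold enrichment of 61.1 and 54.8 in test 1 and 2 and 86.4 and 66.9 in control 1 and 2. Its pileup in FPM was 23.4 and 17.3 in test 1 and 2 and 24.1 and 22.2 in control 1 and 2, so unlike the steep mitochondrial-copy sites it was not low in control 1.

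At chromosome ends, 11 of the 19 regions had a control 1 pileup in FPM below 0.5 times the mean of the other libraries, and 6 of 19 had one per 1000000 of all fragments. The median ratio was 0.41 in FPM and 0.72 on the other scale. Of the 11, 10 were among the 12 regions within 20 kb of the first base or of the last deposited peak, and of the 7 farther in, 4 lay together near the end of chromosome 10, so no test of distance was made. The region chr1:10002-10281, near the start of chromosome 1, had 4.72 and 5.52 FPM in test 1 and 2 and 1.20 and 5.44 in control 1 and 2. The region chr7:10002-10230 had 1.14 and 3.05 FPM in test 1 and 2 and 0.88 and 5.44 in control 1 and 2. Sequence next to the ends of many human chromosomes is shared between them, and how far reads were shared among these sites was not tested.

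The 163 regions near centromeres held like levels across libraries, with a median of 3.74 and 3.63 FPM in test 1 and 2 and 3.29 and 3.59 in control 1 and 2. Here too the median ratio of control 1 to the other libraries changed with the scale, at 1.41 per 1000000 of all fragments against 0.80 in FPM. In these, 102 had another region of the set within 10 kb. They included chr9:66971002-66971434, which had the highest smallest percentile of fold over the libraries among regions under broad peaks outside the mitochondrial-copy bins, with a fold enrichment of 43.9 and 44.6 in test 1 and 2 and 48.2 and 43.4 in control 1 and 2.

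The rule did not use broad peaks, though these hold the same short fragments as the narrow ones. Of the 411 regions, 59.6% lay under a broad peak of all 4 libraries and 16.3% under none, while 7.20% of all 17258 merged regions lay under broad peaks of all 4 and 46.0% under none. Of the 17258, 13953 were called in 1 library only, so this contrast follows in part from the choice and is given as a description. Library by library, the regions lay under a broad peak of the same library in 66.4% and 70.8% of cases in test 1 and 2 and in 77.4% and 70.1% in control 1 and 2. Other narrow peaks did so in 71.1% and 57.3% of cases in test 1 and 2 and in 38.8% and 65.7% in control 1 and 2. The 411 were taken as merged over libraries, with a median width of 171 bp, while each other peak was that of 1 library. Those had median widths of 91 and 84 bp in test 1 and 2 and 77 and 89 bp in control 1 and 2. The shares are thus of unlike units, since a wider interval overlaps more readily. How far width gave the difference was not tested. The mean difference was 12.96 percentage points, which did not pass an exact two-sided sign-flip test over the 4 libraries (p = 0.375, adjusted 0.438), for which the smallest possible p is 0.13. The regions stood higher in test 2, control 1 and control 2 and lower in test 1. Leaving out control 1, which also redefines the set, gave 26.6 points. Using lists of equal length gave 2.67 points, and keeping only peaks with a −log10 q of 5 or more turned the difference to −7.15 points.

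**Figure D5:**
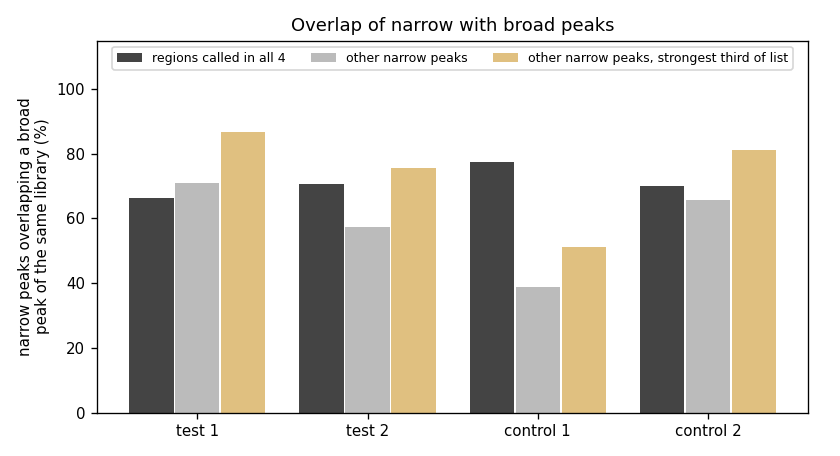
Percentage that overlaps a broad peak of the same library, for the 411 merged regions and for the other narrow peaks of that library. The last set is the other peaks that lie in the strongest tercile of that library's list by fold. The 411 regions stand at 66.4, 70.8, 77.4 and 70.1% and the strongest tercile at 86.9, 75.7, 51.1 and 81.1% in test 1, test 2, control 1 and control 2.

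Against other strong peaks the difference went both ways. A stronger set was the other narrow peaks in the strongest tercile of their library's list by fold. It held 654 and 849 peaks in test 1 and 2 and 2780 and 1259 in control 1 and 2. Its shares were 86.9% and 75.7% in test 1 and 2 and 51.1% and 81.1% in control 1 and 2. The 411 merged regions were thus above it in control 1 only. Peak width depends on the same q that chose the regions, so it is given as a description. Widths are of each library's own peaks. For the 411 regions, median widths were 111 and 124 bp in test 1 and 2 and 135 and 125 bp in control 1 and 2. In these libraries they were 91 and 84 bp and 77 and 89 bp for all other narrow peaks. For those in the strongest tercile of the list they were 117 and 101 bp and 86 and 116 bp. The regions were thus wider than other peaks in each library, and narrower than other strong peaks in test 1.

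The share and the width did not pass a test between test and control libraries. The share of regions under a broad peak averaged 68.6 ± 3.10% in test and 73.7 ± 5.16% in control (SD, n = 2 each), a difference of −5.11 percentage points (exact two-sided permutation p = 0.667, adjusted 0.667). The median width averaged 117.5 ± 9.19 bp in test and 130 ± 7.07 bp in control, a difference of −12.5 bp (exact permutation p = 0.33, adjusted 0.438). The smallest p that 2 libraries against 2 allow is 0.33, so no such comparison could pass 0.05.

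Counts of regions whose groups did not overlap depended on the scale. Per 1000000 nucleosome-free fragments, both test pileups were above both control pileups in 126 of the 411 regions (30.7%, against 28.6% of the 653) and both control pileups above both test pileups in 19 (4.62%, against 6.89%). Per 1000000 of all fragments the counts were 22 (5.35%, against 3.52% of the 653) and 89 (21.7%, against 30.0%). The larger count changed sides with the scale, so no region is named from it as higher in either group. Under both scales, none of the 23 mitochondrial-copy regions had its groups apart, since control 1 was below and control 2 above the test libraries.

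The planned class of likely promoters, all 262 regions under broad peaks of 3 or 4 libraries outside the listed bins, was set against the 23 mitochondrial-copy regions in each library. Of the 262, 123 were near a centromere or a chromosome end, and no gene models were used. They are therefore called broad-peak regions here, and the tests do not compare promoters with copies. Local background, the FPM expected from the surroundings of a peak, had a median of 0.16 in the broad-peak regions and 1.08 in the mitochondrial copies of test 1, 0.16 and 0.94 in test 2, 0.14 and 0.24 in control 1, and 0.16 and 1.41 in control 2. The broad-peak regions were lower in 4 of 4 libraries by a mean of 0.76 (exact sign-flip p = 0.13, adjusted 0.292). The narrow fold enrichment divided by the broad one was likewise lower in 4 of 4 libraries, by 0.66 at the mean (exact sign-flip p = 0.13, adjusted 0.292). It exists only where a broad peak was called. This left 19 and 18 of the 23 mitochondrial copies in test 1 and 2 and 15 and 20 in control 1 and 2. Several of these share a broad peak. Width differed by 22 bp at the mean but was smaller in the broad-peak regions of test 1 (exact sign-flip p = 0.25, adjusted 0.438). In all, 7 tests were made, among them that of region width against other narrow peaks, given above as a description. The smallest possible p was 0.13 for the sign-flip tests and 0.33 for the permutation tests. None of the 7 could therefore pass 0.05.

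At the edge of the rule, 10 regions had a −log10 q below 2 in at least 1 library. The lowest was 1.41, in control 1 at chr7:135662149-135662296, where fold enrichment was 9.11 and 9.78 in test 1 and 2 and 3.84 and 7.43 in control 1 and 2. Just outside were strong sites that missed a single library. At chr5:93905093-93905233 the enrichment was 30.2 and 30.2 in test 1 and 2 and 35.5 in control 2, and at chr2:88124415-88124490 it was 27.8 and 23.9 in test 1 and 2 and 42.2 in control 2, with no call in control 1 at either. At chr14:32954249-32954315 test 1 was the missing library, and fold enrichment was 37.5 in test 2, 23.4 in control 1 and 38.3 in control 2.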

How the data were processed

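ATAC-seq peak lists of 2 test and 2 control libraries of OVSAHO cells were used, 1 narrow and 1 broad list each, with groups and replicate numbers from the labels. The submitters' processing notes list MACS2 2.2.7.1 beside Bowtie2 2.3.5.1, cutadapt 3.2, edgeR 3.34.1, Picard and deepTools 3.5.1, and give no roles. Per the file headers, the authors called peaks in each library separately, without a control sample and with duplicates kept. The deposited pileup is a coverage signal, the number of fragments at the summit or, in broad lists, over the peak. Each deposited p-value and q-value is given as −log10. Fold enrichment, as the authors deposited it, is a ratio of pileup to local background in the same library. None of these is normalized between libraries, so a deeper library can pass the threshold at weaker sites.

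Here pileups were divided by each library's nucleosome-free fragments, or by all fragments as an alternative added after the data were seen. Local background was recovered as (pileup + 1) / fold enrichment − 1. The members, the mitochondrial-copy bins and the lists were chosen with earlier results of these data known. The bins and the centromere gaps came from background knowledge and their sequence was not checked. Regions to name were the 10 per class with the highest smallest percentile of fold, each region in a mitochondrial-copy bin, the 5 each way with the largest percentile difference between groups that did not overlap, and those at the edge of the rule. Regions of the third kind are not described, since ranks from lists of unequal length show no change, and sites given as examples of a form were chosen after their values were seen. Group differences used exact two-sided permutation tests and differences between sets of peaks used exact sign-flip tests over libraries, with Benjamini-Hochberg adjustment over 7 tests. Alternatives were lists cut to equal length, only peaks with a −log10 q of at least 5, merging within 100 bp, a required overlap of 50%, no dense windows, each library left out in turn, and the replicate number as a block. Leaving out regions near centromeres and a crossed block were chosen with the values known. The merging was tested on simulated data, where 3000 of 3000 regions were assigned to the right libraries. The software was scipy 1.17.1, pandas 2.3.3, numpy 2.4.6 and matplotlib 3.10.9 under Python 3.11.15. Planned promoter, gene and motif annotation was not run, since no gene models or sequence of hg19 were used here.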

Additional observations from a re-analysis of the deposited data

How the results depend on the processing

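The number of regions, 411, was between 312 and 408 with lists of equal length, with only peaks of −log10 q at or above 5, with merging within 100 bp and with an overlap of 50%. It was 261 without dense windows and 246 without regions near centromeres. Leaving out 1 library at a time gave 443 to 1073, the highest without control 1. The share of merged regions under a broad peak minus that of other peaks, taken singly, was 12.96 percentage points. It reversed to −7.15 with a −log10 q of 5 or more. It was 2.67 with lists of equal length and 7.35 without dense windows, and leaving out 1 library gave 12.4 to 26.6. The test minus control difference in that share was −9.80 to −2.84 over all alternatives, and that in width was −20.5 to −9.00 bp, with no exact permutation p below 0.33. The median fold percentile of the regions, test minus control, moved with list length and is no change between groups. It was −4.61 points as deposited, −0.166 with lists of equal length, and −7.70 to −4.44 when 1 library was left out. Differences between the broad-peak regions (the planned class of likely promoters) and mitochondrial-copy regions kept their sign under each of 9 alternatives but not their size. The width difference of 22 bp was 10 without control 1 and 71.9 without dense windows, and that in narrow over broad fold, −0.66, was −1.38 and −1.84. Per 1000000 of all fragments, the median ratio of control 1 to the other libraries was 0.301 instead of 0.172 in the mitochondrial-copy bins and 1.47 instead of 0.841 in the arm regions not low in control 1.

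With the replicate number as a block, the test minus control difference was −5.11 percentage points in the share under a broad peak (exact p = 1) and −12.5 bp in width (exact p = 0.5), against the smallest possible p of 0.5. Same-numbered libraries deviated from their group means with a correlation of −0.273 over the 411 regions, and with the pairs crossed neither of the 2 tests passed 0.05. The cause of the values that moved was not tested. Control 1 pileups of 10 fragments or fewer limit the precision at 25 of the 30 arm regions low in control 1.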
